A study of Mus musculus with 4 samples.

Results

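Ighd-positive B cells were analysed in the bone marrow of TLR9-/- and WT mice. They were selected on the transcripts counted in each cell: at least 2 unique molecular identifiers (UMIs, which mark single captured molecules) of Cd79a and Cd79b together, at least 1 of Ighd, at least 3 of H2-Aa, H2-Ab1 and H2-Eb1 together, 0 of Siglech and at most 1 of Vpreb1 and Igll1 together. Of 39167 cells with 200 to 10000 detected genes and at most 10% of their UMIs on mitochondrial genes, 3149 met these criteria. The study profiled mononuclear cells, flushed from femur and tibia and collected over Ficoll, from 2 TLR9-/- and 2 WT mice of strain C57BL/6 (C57BL6/J in the methods), with 1 single-cell library per mouse. Tlr9 encodes an endosomal receptor for unmethylated CpG DNA, and the TLR9-/- animals carried a disrupted allele in every cell. The methods state that both genotypes were bred in separate cages, so that genotype and colony cannot be told apart, and neither the age nor the sex of these 4 mice is given in the sources used here. Each of 2 experiments held 1 mouse of each genotype, and the labels do not say whether the library numbers mark them. Cells of 1 mouse share their source, so genotypes were compared over libraries, and values of the 4 libraries are given in the order TLR9-/- 1, TLR9-/- 2, WT 1 and WT 2.

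A B cell that has finished rearranging its heavy and light chain genes first displays IgM and then, on leaving the immature stage, adds IgD, which is spliced from the same long heavy chain transcript and is encoded by Ighd. Mature follicular B cells circulate through blood, spleen and lymph nodes and return to the bone marrow, where they lie beside precursors that still express the surrogate light chain genes Vpreb1 and Igll1. They carry MHC class II molecules (H2-Aa, H2-Ab1 and H2-Eb1) loaded with the help of the invariant chain Cd74, the low-affinity IgE receptor CD23 (Fcer2a), the complement receptor CD21 (Cr2) and the Fc receptor for IgM (Fcmr).

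The class II genes on which the cells were selected share a promoter element known as the Y box. A search of the 250 bases before the start site for CTGATTGG, on both strands, found it once in H2-Aa, 51 bases before the start, and once in H2-Eb1, 62 bases before it. The same letters stood in 4.07% of 27025 promoters of that length. H2-Ab1 was not in the table used. The stretches around it are shown from RefSeq (GRCm38) with the searched letters in capitals, for H2-Aa on the minus strand of chr17:34287857-34287916 and for H2-Eb1 on the plus strand of chr17:34305763-34305822.
H2-Aa: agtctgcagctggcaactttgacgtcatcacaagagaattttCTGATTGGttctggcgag
H2-Eb1: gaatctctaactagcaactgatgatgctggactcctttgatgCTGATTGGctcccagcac

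The 4 libraries contributed 431, 1031, 693 and 994 Ighd-positive B cells with 925101, 2809537, 1307216 and 2328151 UMIs in all. Their median depth was 1344, 1762, 1139 and 1453.5 UMIs per cell, with 656, 816, 574 and 701 genes. Many of them sat at the limit on Ighd: 264, 337, 397 and 408 cells had exactly 1 Ighd UMI, which was 61.3%, 32.7%, 57.3% and 41.0% of the cells. Just outside, 508, 417, 747 and 568 cells met every other criterion but had no Ighd UMI, with a median depth of 1595.5, 2002, 1404 and 1763.5 UMIs. At the class II limit, 16, 10, 43 and 33 cells had exactly 3 UMIs, and 24, 19, 42 and 45 cells fell short with 2. Cells on either side of the Ighd limit were therefore more numerous than cells on either side of the class II limit, and 1 captured Ighd molecule decided the membership of many cells.

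Ighd UMIs, which free RNA in the droplets can also bring, were rare in cells that should lack them. Among neutrophils with no more than 1 UMI of Cd79a and Cd79b, 9 of 1893, 9 of 2291, 11 of 1010 and 17 of 1801 cells had an Ighd UMI. This was 0.475%, 0.393%, 1.09% and 0.944% of them (exact binomial 95% intervals 0.218 to 0.901, 0.180 to 0.744, 0.545 to 1.94 and 0.551 to 1.51, counting error only), at median depths of 2691, 3700, 2380.5 and 2800 UMIs. Among cells with at least 2 Cd79 UMIs the share was 20.5%, 45.7%, 22.2% and 33.5%, at lower median depths of 1495, 1950, 1274 and 1658 UMIs.

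A minority of the barcodes also held transcripts of other lineages, which bears on every level below. Of the 431, 1031, 693 and 994 cells, 43, 102, 66 and 75 had at least 20 UMIs on marker lists of neutrophils, monocytes, erythroid cells, T cells and NK cells combined. These mixed barcodes were 9.98%, 9.89%, 9.52% and 7.55% of the cells but held 29.9%, 37.3%, 31.7% and 29.2% of the UMIs, with medians of 4640, 7103, 3664.5 and 5823 UMIs against 1269, 1709, 1085 and 1412 in the others. They carried 97.7%, 99.0%, 98.3% and 95.8% of all UMIs of those lists, which follows in part from how they were defined. The remaining cells had few, and the median over all Ighd-positive B cells was 1, 1, 1 and 4 UMIs. A doublet search marked 37.2%, 60.8%, 27.3% and 53.3% of the mixed barcodes and 1.55%, 1.61%, 3.35% and 4.35% of the others. The search kept its expected rate in WT 2, where its automatic threshold marked none. Barcode sequences recurred between libraries, but only 1 pair from TLR9-/- 2 and WT 1 and 1 pair from WT 1 and WT 2 belonged to Ighd-positive B cells on both sides. The mixed barcodes are included below unless they are said to be left out.

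Neutrophil transcripts were the most abundant of these in 3 libraries, and erythroid transcripts in WT 1. The 7 neutrophil markers summed to 20433, 36644, 11621 and 33917 UPM (UMIs per 1000000 UMIs of the cells in question), with all 7 detected in every library, and to 492, 495, 297 and 1773 without the mixed barcodes. S100a9, an abundant calcium-binding protein of neutrophil granulocytes, was their leading gene in all 4 libraries before the mixed barcodes were left out. The 6 erythroid markers, led by the globin gene Hbb-bs, summed to 6726, 3407, 28189 and 2965 UPM and to 339, 114, 593 and 337 without the mixed barcodes, so that WT 1 stood apart for red cell transcripts. The 6 monocyte markers, led by Lyz2 (lysozyme), summed to 2360, 2562, 1177 and 1787 and to 100.3, 64.7, 113 and 141 without them. The 7 T cell markers reached at most 36.7 UPM and the 4 NK cell markers at most 153. The receptor gene Csf1r was at 0 in all 4 libraries once the mixed barcodes were left out.

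**Figure D1:**
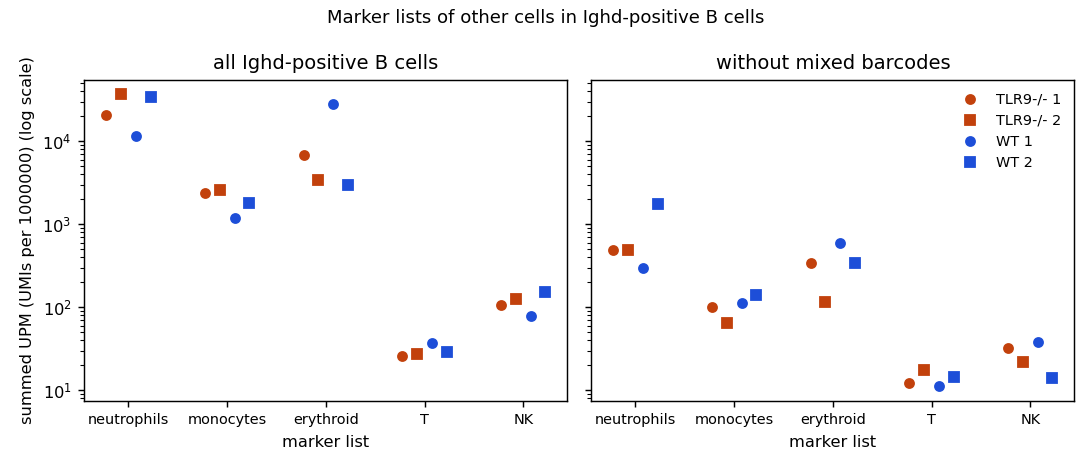
Summed UPM (log scale) of 5 marker lists in the Ighd-positive B cells of each library, for all cells (left) and without the mixed barcodes (right). Points are libraries, orange for TLR9-/- and blue for WT, circles for number 1 and squares for number 2. The neutrophil list lies between 11621 and 36644 on the left and between 297 and 1773 on the right.

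The markers given for mature B cells were present in these cells, though the selection itself used Ighd, H2-Aa and H2-Eb1. Comparisons with other cells describe the classes and carry no test, since the cells were sorted by their own transcripts. Levels are in UPM of the class, and 2563 Ighd-negative Ms4a1-positive cells (with the same limits on Cd79, Siglech and surrogate light chain) and 2731 surrogate light chain cells served for comparison. Ighd itself stood at 743, 884, 882 and 936 UPM, as chosen, against 24.0 to 44.6 in surrogate light chain cells and 2.24 to 7.80 in cells with fewer than 2 Cd79 UMIs. Fcmr was at 476, 596, 521 and 488, above the 370, 347, 405 and 361 of Ighd-negative cells and the 2.90 to 8.51 of surrogate light chain cells. Cd74 was at 13653, 16574, 12469 and 11253, against 7028 to 9862 in Ighd-negative cells and 120 to 276 in surrogate light chain cells. For Fcmr and Cd74, every library of Ighd-positive cells lay above every library of the other classes. The Ighd-negative class had no class II limit, so for Cd74, which works with class II, this order is not independent of the selection. Without the mixed barcodes this still held for Fcmr (628.6 to 849 against 495 to 570.2 in Ighd-negative cells), whereas Cd74 overlapped (14833 to 23748 against 9871 to 16466).

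Several genes of circulating B cells followed the same order, but not all. Fcer2a was at 153, 262, 112 and 152 UPM in Ighd-positive cells and at 57.4, 83.1, 53.4 and 50.7 in Ighd-negative cells. Cr2 was at 87.6, 86.5, 62.7 and 79.5 against 29.9, 35.0, 34.7 and 30.4. Cd55, a complement regulator, was at 177, 176, 121 and 138 against 82.4, 85.3, 69.5 and 55.2, and Zfp318, the nuclear factor needed for splicing to IgD, at 60.5, 85.4, 65.0 and 65.7 against 28.3, 37.2, 36.0 and 37.2. The groups did not overlap for any of these 4 genes. Without the mixed barcodes in either class, the lowest Ighd-positive value stayed above the highest Ighd-negative value for each of them (157 against 144 for Fcer2a, 86.3 against 64.1 for Cr2, 158 against 137 for Cd55 and 77.1 against 64.1 for Zfp318). The classes overlapped for the homing receptors Ccr7 (lowest Ighd-positive value 68.8, highest Ighd-negative value 86.7), Cxcr5 (27.5 and 34.3) and S1pr1 (44.3 and 54.7) and for Cd40 (57.4 and 98.4). Tnfrsf13c, the receptor for the survival factor BAFF, was lower in Ighd-positive cells, at 178, 169, 156 and 176 against 253, 204, 306 and 343.

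Some genes of the earlier stage were lower but not absent. Vpreb3, which assists assembly of the pre-B cell receptor, was at 813, 542, 951 and 989 UPM against 1499, 1405, 1762 and 2110 in Ighd-negative cells and 2384 to 3411 in surrogate light chain cells. Cd24a, the heat stable antigen, was at 628, 388, 677 and 442 against 847, 687, 972 and 709. Cd93, a marker of immature and transitional B cells, was at 30.3, 25.3, 42.8 and 31.8 against 56.6, 47.4, 42.5 and 46.8, so that its groups overlapped. Ighm was at 1652, 1598, 1631 and 2530 against 2365, 4544, 2357 and 3745, again with overlap. Il7r, the interleukin-7 receptor chain, was instead higher in each library than in its Ighd-negative cells, at 44.3, 22.8, 72.7 and 52.4 against 40.4, 14.6, 51.5 and 30.4. The recombinase genes, at low levels in both classes, did not share a direction. Rag2 was higher in each library, at 7.57, 1.07, 6.12 and 7.73 against 2.42, 0.729, 1.93 and 6.20. Rag1 was lower in each library, at 4.32, 5.69, 7.65 and 12.9 against 10.5, 10.2, 9.01 and 18.6. With the mixed barcodes left out, Il7r in TLR9-/- 1 was at 50.9 against 51.04. The transcripts thus marked the cells as IgD-expressing B cells on the whole, with immature markers still present; recirculation itself was not measured, and they are called here by the transcript that chose them.

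**Figure D2:**
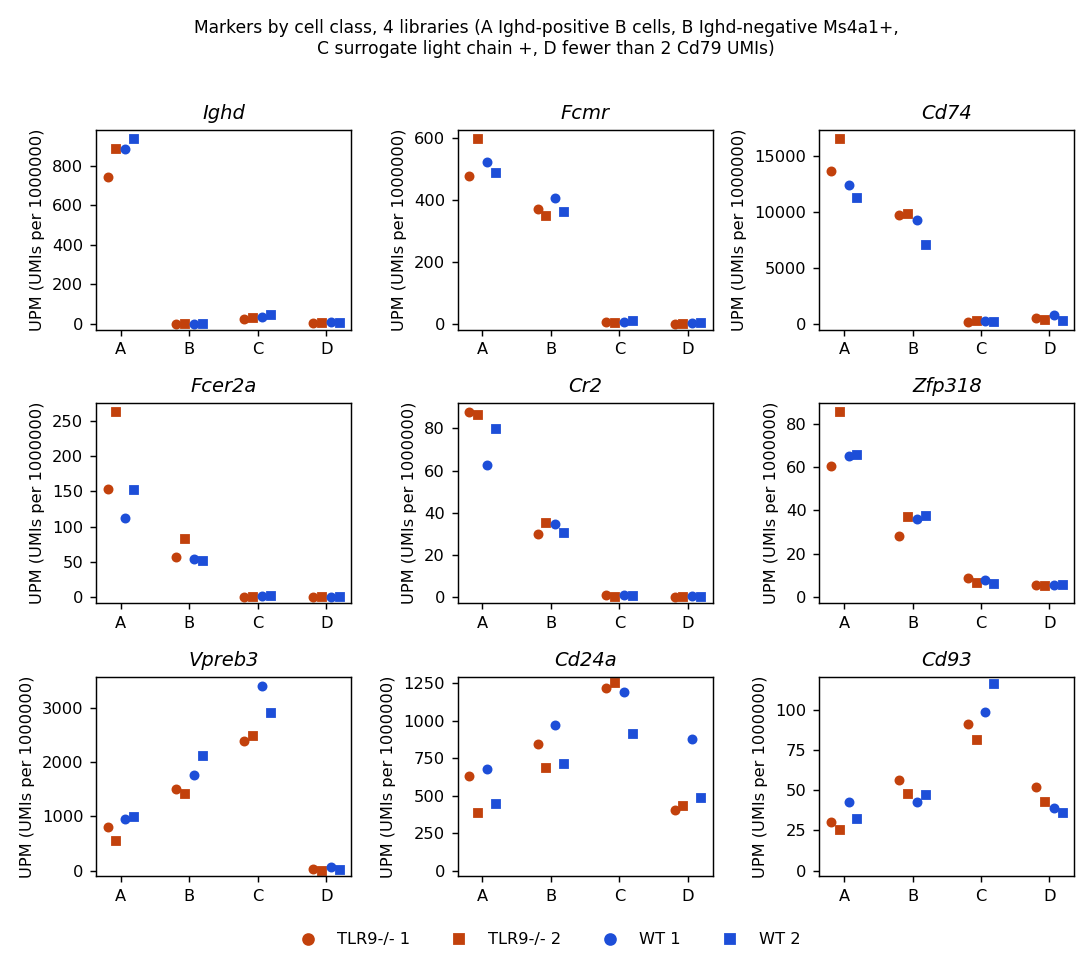
UPM of 9 marker genes in 4 cell classes (A Ighd-positive B cells, B Ighd-negative Ms4a1-positive cells, C surrogate light chain cells, D cells with fewer than 2 Cd79 UMIs), one point per library, mixed barcodes included. Fcmr, Cd74, Fcer2a, Cr2 and Zfp318 are highest in class A, and Vpreb3 lies between 542 and 989 there against 2384 to 3411 in class C.

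The Ighd-positive B cells were not uniform. They were divided by their Ighd UMIs, with mixed barcodes left out, and levels of genes the selection did not use were compared as a description. Cells with 1 Ighd UMI numbered 237, 303, 356 and 375, and cells with 3 to 5 numbered 55, 324, 87 and 269. Cd93 was at 34.1, 33.7, 45.1 and 42.4 UPM with 1 Ighd UMI and at 10.4, 3.29, 23.7 and 25.6 with 3 to 5. The Cd93 levels at 3 to 5 Ighd UMIs rested on few Cd93 UMIs in every library. Vpreb3 was at 1160, 1051, 1513 and 1619 against 800.2, 621, 940 and 814, and Cd24a at 799, 466, 578 and 522 against 468, 260.1, 466 and 336. All 3 immature markers were lower at the higher Ighd count in all 4 libraries. In the opposite direction, Fcmr was at 629, 719, 580 and 542 against 717, 920.3, 813 and 775, and Fcer2a at 183, 331, 145 and 165 against 270.2, 428, 158 and 230.0. Both receptor genes were higher at the higher Ighd count in all 4 libraries. Mki67, the proliferation marker Ki-67, was at 115, 56.7, 129 and 224 against 31.2, 3.29, 86.9 and 106, the latter again on few UMIs in both TLR9-/- libraries. With the mixed barcodes kept, the direction of these 6 genes was the same in every library.

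Cells with 6 or more Ighd UMIs numbered 2, 39, 5 and 23 without mixed barcodes, so that only the libraries numbered 2 held more than 20 of them. There, Zfp318 was at 209 and 197 UPM in TLR9-/- 2 and WT 2, against 119 and 70.6 in cells with 1 Ighd UMI. At 3 to 5 Ighd UMIs it was at 62.4, 125, 63.2 and 83.1, against 70.7, 119, 80.3 and 70.6 at 1, with no common direction over the 4 libraries. Cd55 was at 395 and 295 against 234 and 144, and Cd93 and Mki67 had no UMI in either library.

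**Figure D3:**
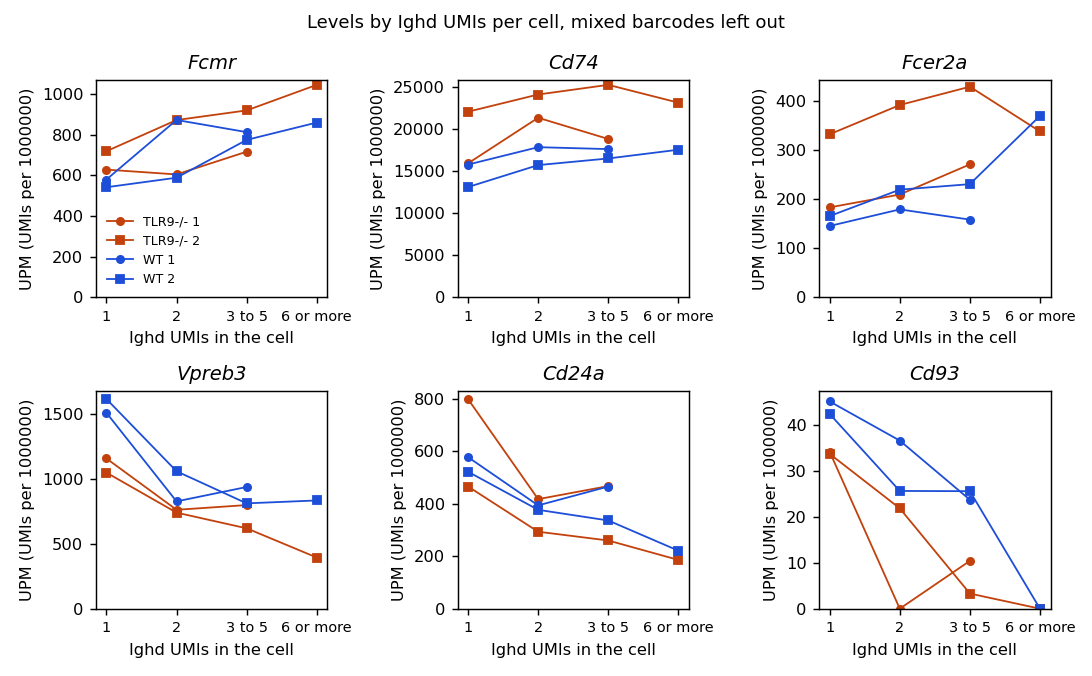
UPM of 6 genes in Ighd-positive B cells divided by Ighd UMIs per cell, mixed barcodes left out, one line per library. The group with 6 or more Ighd UMIs is drawn only for the libraries numbered 2, which held 39 and 23 such cells. Fcmr and Fcer2a are higher, and Vpreb3, Cd24a and Cd93 lower, at 3 to 5 Ighd UMIs than at 1 in all 4 libraries.

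The share of Ighd-positive B cells differed more within a genotype than between genotypes. They were 3.998%, 11.6%, 6.55% and 11.2% of the kept cells, with a mean of 7.78% ± 5.35 for TLR9-/- and 8.86% ± 3.27 for WT (SD over n = 2 mice each). The log2 ratio of the means was -0.19 and the groups overlapped (two-sided exact permutation p = 1; the smallest p that 2 libraries against 2 allow is 0.33). Leaving out the mixed barcodes gave a log2 ratio of -0.21. Both libraries numbered 2 held the larger shares, whatever the genotype.

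The direction of this comparison turned with the denominator and with single libraries (log2 ratio 0.38 without TLR9-/- 1 and 0.25 without WT 2). Cells with at least 2 Cd79 UMIs were 34.8%, 31.5%, 52.2% and 53.0% of all kept cells, lower in both TLR9-/- libraries than in both WT libraries. Of those cells, Ighd-positive B cells made up 11.5%, 36.8%, 12.5% and 21.1%, a mean of 24.1% ± 17.9 in TLR9-/- and 16.8% ± 6.05 in WT mice, with a log2 ratio of 0.52 (exact permutation p = 1). TLR9-/- 2 was high and TLR9-/- 1 lay below both WT libraries. The class of Ighd-negative Ms4a1-positive cells made up 5.22%, 4.63%, 7.77% and 8.60% of all cells, and surrogate light chain cells 6.85%, 2.99%, 8.46% and 9.35%. In both of these classes the TLR9-/- libraries lay below the WT libraries, at the smallest p the design allows (exact permutation p = 0.33).

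To compare the libraries at equal depth per cell, every cell was also reduced at random to 1000 UMIs. Shallower cells were left out (1897, 466, 2713 and 1156 cells, of which 85, 44, 265 and 118 were Ighd-positive B cells). The share was then 2.43%, 8.18%, 3.22% and 7.80% of the cells, with a log2 ratio of -0.06, and 11.4%, 33.2%, 9.22% and 18.2% of the cells with Cd79 UMIs. The gap between the libraries numbered 1 and 2 remained at equal depth.

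**Figure D4:**
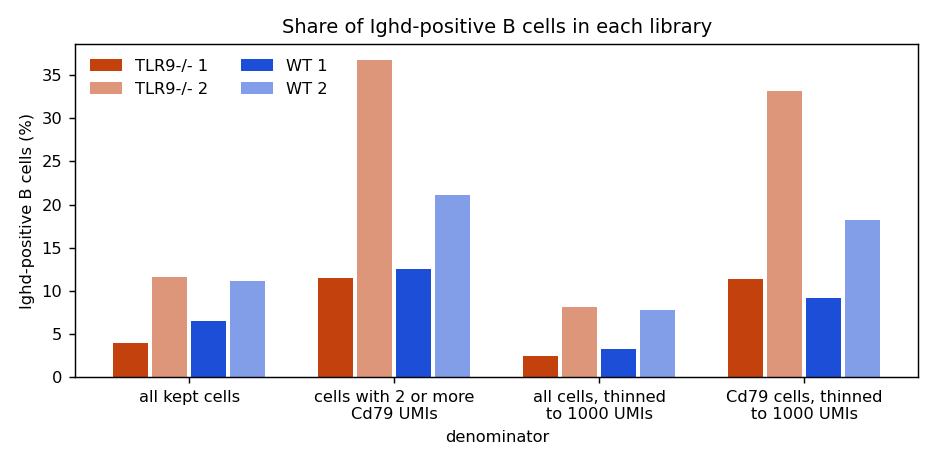
Ighd-positive B cells as a percentage of 4 denominators, one bar per library (orange TLR9-/-, blue WT, pale bars number 2). The bars numbered 2 exceed those numbered 1 of the same genotype for all 4 denominators, and TLR9-/- 2 reaches 36.8% of cells with at least 2 Cd79 UMIs.

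The light chains in these cells were read from variable genes. In 396, 987, 635 and 890 Ighd-positive B cells with at least 2 light chain V UMIs, lambda V transcripts outnumbered kappa V transcripts in 8.33%, 8.61%, 7.72% and 8.20%. This share differed by less than 1 percentage point over the 4 libraries. The constant genes gave another picture: Iglc genes held 67.9%, 69.1%, 64.6% and 56.6% of all light chain constant UMIs. Their level in cells with more kappa V UMIs (3895, 3243, 3260 and 2887 UPM) was close to that in cells with more lambda V UMIs (3039, 3535, 3491 and 3038), so that Iglc counts did not separate lambda from kappa cells here. Igkc was at 1847, 1496, 1778 and 2229 UPM in the former and 484, 690, 906 and 861 in the latter.

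The repertoire was broad. Cells with at least 2 Igkv UMIs numbered 375, 938, 602 and 844, and 78, 87, 82 and 88 different Igkv genes led at least 1 of them. The most frequent leading gene was Igkv1-135 in TLR9-/- 1 (6.40% of these cells), Igkv6-15 in TLR9-/- 2 (4.37%), Igkv1-117 in WT 1 (6.64%) and Igkv10-96 in WT 2 (5.81%). Heavy chain V genes were captured less often, and 111, 414, 98 and 135 cells had at least 2 Ighv UMIs. Ighv3-6 was the most frequent in all 4 libraries, at 12.6%, 5.07%, 10.2% and 10.4%. No single V gene led more than 12.6% of the cells in any library.

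Switched isotypes were nearly absent. The requirement of an Ighd UMI disfavours switched cells, so this describes the selected cells and is no finding about switching. Igha was at 27.3, 7.80, 10.2 and 4.71 CPM (UMIs per 1000000 after TMM scaling between libraries, the unit of all genotype comparisons below), and at 17.3, 11.999, 12.7 and 4.21 CPM without the mixed barcodes. Ighg1 had 0, 0, 0 and 2 UMIs.

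The genotypes were compared on the UMIs summed over the Ighd-positive B cells of each library, with edgeR's quasi-likelihood test (two-sided) and Benjamini-Hochberg adjustment over 9174 genes. At an adjusted p under 0.05, 19 genes (0.207% of those tested) differed, of which 9 were higher in TLR9-/- cells and 10 lower. The unadjusted p was under 0.05 for 660 (7.19%). Both TLR9-/- libraries lay above both WT libraries in 1682 genes (18.3%) and below them in 1726 (18.8%). With the mixed barcodes left out, 8128 genes could be tested and 14 differed (0.172%), 7 in each direction, all 14 among the 19. The main fit had no block, since the labels do not tie the library numbers to the experiments. With the library number as a block, 203 genes were called, and some genes printed below as not called were among them. Calls below are those of the main fit unless the block is named. Under each of 14 other settings (scaling, filters, thresholds, tool, the block and each library left out), Trim12a, Trim5, Trim34a, Gm19951, Mid1, BC018473 and Gm35082 were called. The other 12 lost the call, or could not be tested, under at least 1 of them. All 12 did so without TLR9-/- 2, 11 after thinning to 1000 UMIs per cell and 10 with at least 2 Ighd UMIs per cell.

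Tlr9, the disrupted gene, had 2, 6, 9 and 18 UMIs in the Ighd-positive B cells, or 2.19, 2.13, 7.08 and 7.70 CPM. Both TLR9-/- libraries lay below both WT libraries, but at these counts the log2 fold change of -1.76 (standard error, SE, 0.57) did not pass the threshold (edgeR adjusted p = 0.504). Without the mixed barcodes the values were 1.57, 2.29, 10.4 and 10.2 CPM (log2 fold change of -2.25, adjusted p = 0.435).

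Of the 10 lower genes, 4 belong to the tripartite motif (TRIM) family, ubiquitin ligases several of which act against viruses. The family was not a list of its own, and its member Mid1 was called in the other direction. The 4 lower genes lie together on chromosome 7 (GRCm38, from 104244457 at the start of Trim34a to 104507849 at the end of Trim30d). Trim12a had 0, 0, 76 and 144 UMIs, so that it was at least 75.9-fold lower when set against 3 UMIs over both TLR9-/- libraries (adjusted p = 0.000265). Trim5 was at 0, 0.709, 32.3 and 42.4 CPM (log2 fold change of -5.98 with SE 0.54, adjusted p = 0.000700). Trim34a was at 2.19, 4.96, 78.7 and 58.6 CPM (log2 fold change of -4.00 with SE 0.36, adjusted p = 0.000700). Trim30d had 0, 0, 25 and 29 UMIs and was at least 18.6-fold lower (adjusted p = 0.0187). All 4 kept an adjusted p under 0.05 without the mixed barcodes, but Trim30d lost the call with at least 2 Ighd UMIs (0.0523) and without TLR9-/- 2 (0.327).

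None of the 3 other cluster members that could be tested passed the threshold. Trim12c, which lies between Trim12a and Trim30d, was at 40.4, 50.0015, 48.8 and 40.6 CPM, with overlapping groups (log2 fold change of 0.06, adjusted p = 0.989). Trim30a was at 50.3, 42.6, 92.8 and 50.1 CPM and Trim30b at 14.2, 3.90, 22.0 and 20.1 (adjusted p = 0.741 and 0.490). Trim30b lay lower in both TLR9-/- libraries (log2 fold change of -1.55), as Trim30a did once the mixed barcodes were left out (51.8, 51.994, 108 and 61.3 CPM). Too few UMIs for a test were found for Trim34b (5, all in TLR9-/- 2), Trim6 (1, in WT 2) and Trim30c (3, 10, 1 and 6). These are close paralogs, so that the count of a single member is uncertain where reads fit several of them. The difference was not confined to Ighd-positive B cells: in cells with fewer than 2 Cd79 UMIs, Trim12a was at 0.137, 0.104, 27.2 and 22.3 UPM and Trim30d at 0.301, 0.518, 17.5 and 9.72.

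The start sites of Trim5 and Trim30d were searched because TRIM genes are known interferon targets and these data bear on several of them together. The core of an interferon-stimulated response element, searched as GAAA, any 2 bases and GAAA again on both strands, was found on the opposite strand 49 bases before the start of Trim5 and 41 bases before that of Trim30d, within 250 upstream bases, and not in those of Trim12a and Trim34a. It stood in 3.04% of all 27025 promoters of that length. Both stretches are shown from RefSeq on the minus strand, at chr7:104288126-104288175 and chr7:104507861-104507910, with the match in capitals.
Trim5: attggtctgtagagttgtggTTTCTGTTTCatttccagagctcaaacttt
Trim30d: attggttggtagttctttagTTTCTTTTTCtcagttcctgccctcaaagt

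The list of 35 interferon-stimulated genes, which holds Trim30a but none of the 4 genes above, contained no called gene among 30 tested, beside 0.207% called over all genes. Its median log2 fold change was 0.07, beside -0.02 over all genes tested. Isg15, a ubiquitin-like product of interferon signalling, was at 27.3, 50.0015, 218 and 22.7 CPM, high in WT 1 alone.

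The remaining lower genes had fewer UMIs. Sfn, the adaptor 14-3-3 sigma, was at 4.37, 5.67, 31.5 and 28.7 CPM (log2 fold change of -2.48 with SE 0.33, adjusted p = 0.0136). Hsh2d, a haematopoietic SH2 domain adaptor, was at 3.28, 1.77, 33.8 and 18.4 CPM (log2 fold change of -3.49, adjusted p = 0.0237), and Uchl1, a deubiquitinase, at 4.37, 2.84, 19.7 and 20.1 CPM (log2 fold change of -2.58, adjusted p = 0.0417). The histone gene Hist1h2bj was at 9.84, 6.74, 27.5 and 41.9 CPM (log2 fold change of -2.20, adjusted p = 0.0417). Sfn and Hist1h2bj still passed without the mixed barcodes, whereas Hsh2d and Uchl1 did not (adjusted p = 0.0836 and 0.0608), at log2 fold changes of -3.26 and -2.54. With at least 2 Ighd UMIs, Sfn, Hsh2d, Uchl1 and Hist1h2bj all missed the threshold (edgeR adjusted p = 0.119, 0.0737, 0.144 and 0.131). With at least 5 class II UMIs, Hsh2d, Uchl1 and Hist1h2bj missed it (0.0625, 0.132 and 0.146) and Sfn passed. Hist1h2bj and Uchl1 also lost their calls in DESeq2 (adjusted p = 0.0606 and 0.162) and without WT 2 (edgeR adjusted p = 0.0975 and 0.129). The predicted genes Gm19951 and Gm16867 had 0 UMIs in both TLR9-/- libraries and were at least 60.4-fold and 27.9-fold lower, and Gm16867 missed the threshold without the mixed barcodes (adjusted p = 0.0739).

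Among the higher genes, 6 had no UMI in either WT library. BC018473, an antisense transcript on chromosome 11 (GRCm38, 116752167 to 116759373), had 89, 373, 0 and 0 UMIs and was at least 149-fold higher against 3 UMIs over both WT libraries (adjusted p = 0.000225). St6galnac2 (ENSMUSG00000057286), a sialyltransferase gene 57.3 kb away, had 15 and 43 UMIs and was at least 18.7-fold higher (adjusted p = 0.0127, but 0.0653 without marked doublets, 0.104 with at least 2 Ighd UMIs and 0.548 without TLR9-/- 2). A second model of the same name within it had 1 and 2 UMIs. Col6a4, a collagen VI chain gene, had 14 and 45 UMIs and was at least 18.999-fold higher (adjusted p = 0.0127). Jhy, named for hydrocephalus in mutant mice, had 9 and 48 UMIs and was at least 18.4-fold higher (adjusted p = 0.0237, and 0.0608 without the mixed barcodes). The predicted genes Gm35082 and Gm6594 were at least 56.4-fold and 58.0-fold higher.

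The other 3 were expressed in both genotypes. Mid1, a TRIM family gene of the X chromosome, was at 78.7, 69.5, 11.8 and 17.5 CPM (log2 fold change of 2.27 with SE 0.27, adjusted p = 0.00675). Ocel1 was at 89.6, 105, 22.0 and 28.2 CPM (log2 fold change of 1.94 with SE 0.24, adjusted p = 0.00999). Both passed without the mixed barcodes, but Ocel1 lost the call with at least 2 Ighd UMIs (0.0523), after thinning (0.0675) and without TLR9-/- 2 (0.142). F13a1, the A chain of coagulation factor XIII and a transcript of monocytes, was at 143, 116, 51.1 and 50.5 CPM (log2 fold change of 1.34, adjusted p = 0.0417). Without the mixed barcodes it was at 6.28, 2.29, 4.63 and 7.82 CPM, too low to be tested, and the groups overlapped. The monocyte marker Lyz2 moved alike, from 1497, 1666, 694 and 1055 CPM to 32.9, 41.7, 46.3 and 78.8 CPM. It is on a list that defined the mixed barcodes, so its fall follows in part from leaving them out.

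**Figure D5:**
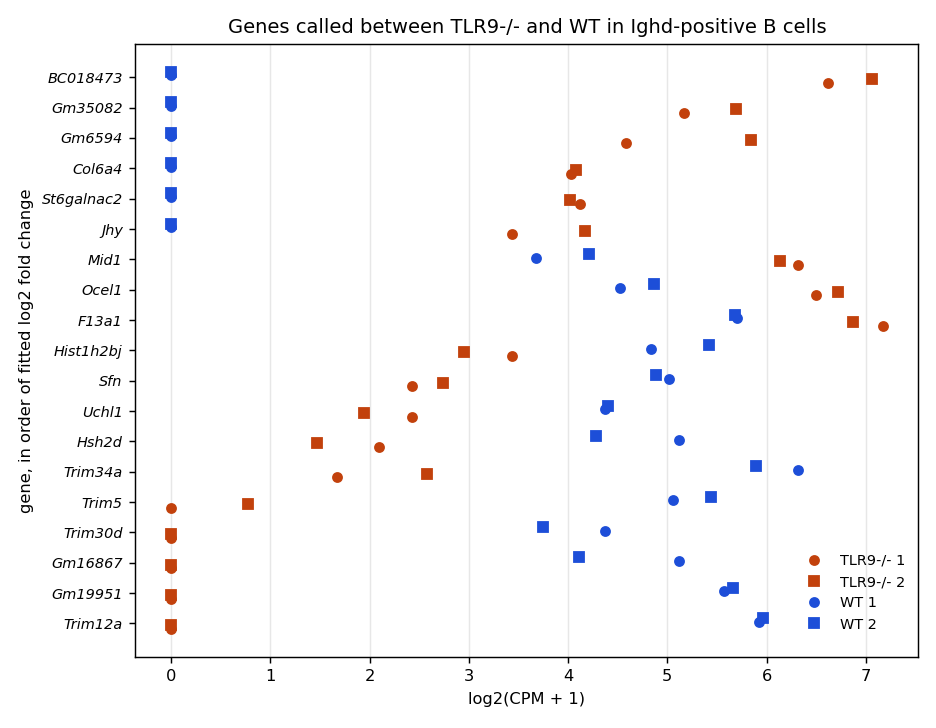
Level of the 19 called genes in Ighd-positive B cells as log2(CPM + 1), one point per library, in order of the fitted log2 fold change, mixed barcodes included. The 6 genes at the top have no UMI in either WT library and 4 at the bottom none in either TLR9-/- library. The 2 genotypes do not overlap for any of them, as their selection by a low p makes likely.

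Some of the called genes were neighbours on the chromosomes. Of the 19, 9 lay within 1 Mb of another called gene or of Tlr9, compared with 226 of 9171 tested genes with a position (2.46%). The 9 were the 4 TRIM genes of chromosome 7, BC018473 and St6galnac2 on chromosome 11, Ocel1 and Hsh2d on chromosome 8, which are 0.810 Mb apart and differ in opposite directions, and Col6a4, which ends 126 kb before Tlr9 on chromosome 9. Of 21 tested genes within 1 Mb of Tlr9, Col6a4 was the 1 called, and the log2 fold changes of the other 20 ranged from -1.47 to 0.90. The part of colony differences in these calls was not tested.

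No gene of the B cell lists passed the threshold, which 0.207% of all tested genes did. Among 18 mature B cell markers, all tested, the median log2 fold change was 0.17, and 7 lay higher and 1 lower in both TLR9-/- libraries (18.3% and 18.8% over all genes tested). Cd74 was at 13802, 16513, 12824 and 11209 CPM (log2 fold change of 0.34, adjusted p = 0.834). Fcer2a was at 155, 261, 116 and 152 CPM, with its highest value in TLR9-/- 2 (log2 fold change of 0.65 with SE 0.26, adjusted p = 0.636). With the library number as a block, Fcer2a passed the threshold (edgeR adjusted p = 0.0223). Ltb, lymphotoxin beta, which helps to build lymphoid tissue, was at 992, 1061, 793 and 665 CPM, higher in both TLR9-/- libraries (log2 fold change of 0.50, adjusted p = 0.638).

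The markers of immature and transitional B cells were counted likewise. Of 12, 0 were called, 0 lay higher and 7 lay lower in both TLR9-/- libraries (18.3% and 18.8% over all genes tested), with a median log2 fold change of -0.49, and -0.73 over the 11 tested without the mixed barcodes. Vpreb3 was at 822, 540, 978 and 985 CPM (log2 fold change of -0.53, adjusted p = 0.686). Sox4, a transcription factor of early B cells named after its values were seen, was at 51.4, 27.3, 74.7 and 93.3 CPM (log2 fold change of -1.19 with SE 0.30, adjusted p = 0.257). Il7r, the interleukin-7 receptor chain of precursors, was at 44.8, 22.7, 74.7 and 52.2 CPM (log2 fold change of -1.001, adjusted p = 0.515). Of the 6 tested markers of B precursor cells, 0 were called, 0 lay higher and 3 lower (median log2 fold change -0.77), against the same shares of all genes. With the library number as a block, Vpreb3, Sox4 and Il7r passed the threshold (edgeR adjusted p = 0.0479, 0.000570 and 0.00749). The lowest values of Vpreb3, Sox4 and Il7r were in TLR9-/- 2, the library with the largest share of cells at 3 or more Ighd UMIs (14.6%, 38.9%, 14.6% and 31.9%). The part of that difference in these values was not tested.

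No gene of the cell cycle was called. Of 16 listed, 12 lay lower and 0 higher in both TLR9-/- libraries (18.8% and 18.3% over all genes tested), with a median log2 fold change of -0.35. With the mixed barcodes left out, 9 lay lower and 0 higher, with a median of -0.81. Mki67 was at 113, 113, 191 and 209 CPM (log2 fold change of -0.82 with SE 0.19, adjusted p = 0.196) and Top2a, the topoisomerase of dividing cells, at 150, 115, 202 and 232 (log2 fold change of -0.73, adjusted p = 0.384). Both were chosen after their values were seen. With the library number as a block, both passed the threshold (edgeR adjusted p = 0.00101 and 0.00470). Cells with at least 3 UMIs over Mki67, Top2a, Birc5, Cdk1, Ccnb2 and Ube2c made up 9.74%, 6.40%, 13.3% and 10.6%. Mixed barcodes were 42.9%, 78.8%, 41.3% and 41.9% of them. Without mixed barcodes the shares were 6.19%, 1.51%, 8.61% and 6.64%, and 5.92%, 1.02%, 10.7% and 4.87% after thinning to 1000 UMIs, where the genotypes overlapped. Such calls can also read free RNA, and no number of dividing cells is derived from them.

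No gene of homing and retention was called. Cxcr4, the receptor that holds B lineage cells in the marrow, was at 94.0, 90.1, 148 and 212 CPM, lower in both TLR9-/- libraries (log2 fold change of -0.98 with SE 0.22, adjusted p = 0.194), and at 95.7, 86.3, 169 and 221 without the mixed barcodes. With the library number as a block, Cxcr4 passed the threshold (edgeR adjusted p = 0.000198). Klf2, which controls lymphocyte exit, was at 573, 311, 599.5 and 535 CPM, and Itga4, an integrin chain for homing, at 89.6, 94.7, 106 and 106. Of 15 tested genes of homing and retention, 4 lay higher and 2 lower in both TLR9-/- libraries, against 18.3% and 18.8% of all genes tested, with a median log2 fold change of 0.11.

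The list of Toll-like receptors and their pathway had 19 tested genes, of which 0 were called, 4 lay higher and 3 lower in both TLR9-/- libraries, near the shares of all genes (18.3% and 18.8%), with a median log2 fold change of 0.14. Tlr7, the endosomal receptor for single-stranded RNA, was at 10.9, 11.3, 14.9 and 8.56 CPM, with overlap. Its chaperone Unc93b1 was at 425, 337, 360 and 330 CPM. Irf5, a transcription factor activated below these receptors, was at 99.4, 96.1, 52.7 and 54.8 CPM, higher in both TLR9-/- libraries (log2 fold change of 0.86 with SE 0.21, adjusted p = 0.228). With the library number as a block, Irf5 passed the threshold (edgeR adjusted p = 0.00640). Tlr4 had 7, 14, 6 and 3 UMIs and Tlr3 1, 2, 0 and 1.

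Antigen presentation showed no call either. Of 16 tested class II pathway genes that the selection did not use, 4 lay higher and 1 lower in both TLR9-/- libraries, against 18.3% and 18.8% of all genes (median log2 fold change 0.16). H2-Ob, part of the chaperone that restrains peptide loading, was at 419, 483, 428 and 440.3 CPM, and Cd40, through which T cells help B cells, at 86.3, 86.2, 59.0 and 60.8 (log2 fold change of 0.52 with SE 0.21, adjusted p = 0.618). The class I genes had a median of 0.02, with H2-K1 at 1365, 1322, 1381 and 1355 CPM. H2-Q7, a nonclassical class I gene chosen after its values were seen, was at 175, 185, 273 and 241 (log2 fold change of -0.51, adjusted p = 0.546).

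No gene of the signalling and survival lists was called. Against 18.3% of all genes higher and 18.8% lower in both TLR9-/- libraries, 8 of 28 genes of B cell receptor signalling lay higher and 4 lower (median log2 fold change 0.08), 1 of 12 survival genes higher and 3 lower (median -0.01) and 7 of 16 genes of NF-kB higher and 2 lower (median 0.22). Tnfrsf13c was at 180.3, 168, 160.5 and 175 CPM. The 28 transcription factors of the B lineage had 27 tested, 4 higher, 5 lower and a median of -0.08. Of 9 tested markers of marginal zone and B-1 cells, 4 lay higher and 0 lower (median 0.30). Of 18 tested immediate early genes, 0 lay higher and 2 lower (median -0.02), and Fos was at 173, 23.1, 92.1 and 35.5 CPM, higher in the libraries numbered 1 of both genotypes. Of 11 tested heat shock genes, 4 lay higher and 0 lower (median 0.28). Cytosolic ribosomal protein genes took 31.3%, 30.015%, 31.3% and 30.5% of the UMIs.

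Cytokines that act on bone were followed because the study concerned bone loss. Tnfsf11, which encodes RANKL, the factor that osteoclasts need, had 0 UMIs in all 3149 cells, which allows a share of up to 0.0953% of cells with a UMI, or 0.407 UPM (counting error only, over cells pooled from the 4 mice). Il10 likewise had 0. Tnf had 12, 17, 6 and 15 UMIs and Il6 3, 2, 2 and 2. Of 10 tested genes in this list, 0 were called, with a median log2 fold change of 0.24, and 5 lay higher in both TLR9-/- libraries (0.207% called and 18.3% higher over all genes tested).

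The same genotype difference was compared between Ighd-positive and Ighd-negative Ms4a1-positive B cells by the class by genotype term in edgeR. Of 9295 genes tested, 0 were called (0%), and 464 had an unadjusted p under 0.05 (4.99%). The term could not be estimated for genes with no UMI in 1 genotype in both classes. Examples are BC018473 and Gm35082 (SE 6158 and 3996), Jhy, Col6a4, St6galnac2, Trim30d and Gm16867. For these the absence of a call says nothing about a difference between the classes. Without the mixed barcodes, 15 of 8190 genes passed, among them 11 light chain V genes, and their names are given after the report. One of them, Igkv8-28, was at 57.8, 5426, 49.1 and 72.8 CPM in Ighd-negative cells with the mixed barcodes kept, high in TLR9-/- 2 alone. The part of plasma cells in these V gene calls was not tested. Among the 19 genes, Trim12a, Mid1, Ocel1, BC018473, Gm6594 and Gm35082 also passed the threshold in Ighd-negative cells (edgeR adjusted p from 0.0241 to 0.0403). Both classes came from the same mice, so this is a description and no second test. The share called over all genes in Ighd-negative cells is not given here. Trim5 and Trim34a did not (adjusted p = 0.0582 and 0.0813), at log2 fold changes of -4.99 and -3.86. Trim30d did not either (adjusted p = 0.0813), at 0, 0, 33.6 and 17.5 CPM in that fit. Trim12a was at 0, 1.46, 45.0 and 52.4 UPM in Ighd-negative cells and at 0, 0, 58.1 and 61.9 in Ighd-positive cells, and Mid1 at 72.7, 72.9, 7.72 and 14.1 beside 77.8, 69.8, 11.5 and 17.6.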

How the data were processed

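The authors aligned 5′ single-cell libraries to mm10 with STAR through Cell Ranger (version 3.0.1 per the file headers) and deposited UMI counts per gene and called cell; Seurat 2.3.4 is named in the submitters' processing notes. The deposited counts are not normalized. Cells were filtered by the study's limits, the mitochondrial limit being read as a fraction of 0.10, which left 39167 cells, more than the study kept. UMIs of the Ighd-positive B cells were summed per library and tested with edgeR 4.0.16 (TMM scaling, filterByExpr, quasi-likelihood test) over all genes, 2 libraries against 2. Doublets were searched with Scrublet in scanpy 1.11.5 and kept. The median depth of 1139 to 1762 UMIs per cell limits what 1 cell can show. The cell criteria and gene lists were chosen with earlier results of these data known. Named genes were Tlr9, up to 10 called genes and up to 2 predicted genes per direction, the called and the 4 most abundant members of each list, and markers. Outside this rule, Fcer2a, Cr2, Zfp318, Cd93, Ccr7, Cxcr5, S1pr1, Cd55, Sox4, Isg15, Fos, Tlr3, Tlr4, Tlr7, Tnf, Il6, Il10, Tnfsf11, Ighg1, H2-Q7, the genes of the cell cycle share and the uncalled TRIM genes were chosen after their values were seen. Coordinates are from GENCODE M21. Nothing says more than 1 mouse stood behind a library, so p-values measure the spread between 4 mice. Alternatives covered scaling, filters, thresholds, doublets, depth, mixed barcodes and each library.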

Additional observations from a re-analysis of the deposited data

How the results depend on the processing

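The 19 calls became 19 with RLE scaling, 19 with DESeq2 (17 shared), 14 with at least 5 class II UMIs, 15 without marked doublets, 14 without mixed barcodes, 21 without immunoglobulin genes, 11 with at least 2 Ighd UMIs, 11 after thinning to 1000 UMIs and 167 with no filter on low counts. Leaving out 1 library gave 10 to 117 calls: 10 without TLR9-/- 2, 25 without TLR9-/- 1, 63 without WT 2 and 117 without WT 1. Fits that leave 1 library in a genotype assume that it varies like the others. For the term between the B cell classes, the 0 calls became 0 with RLE scaling, 92 with no filter, 2 without marked doublets, 15 without mixed barcodes and 21 to 81 with 1 library left out. The 15 were Ighv1-72, Igkv19-93, Igkv4-50, Igkv4-80, Igkv5-39, Igkv6-13, Igkv6-23, Igkv8-18, Igkv8-28, Igkv9-120, Igkv9-124, Iglv2, Mpo, Mt1 and Ube2c. The mixed-barcode alternatives and the thinned share of Cd79 cells were chosen after seeing the data.

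The log2 ratio of the share (-0.19) reversed to 0.52 among cells with 2 or more Cd79 UMIs and to 0.70 when these were thinned, and ran from -1.15 to 0.38 with 1 library left out, being 0.38 without TLR9-/- 1 and 0.25 without WT 2. Lyz2 reversed to -0.74 without mixed barcodes. Of 253 repeats of the 19 called genes, 214 kept direction and call and 39 lost the call, none changing sign. Of 192 repeats of 14 uncalled genes, 17 passed the threshold, with no filter, with the block or without WT 1. The cause of these changes was not tested.

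With the replicate number as a block, 203 genes were called, the 19 among them, and the mean log2 ratio of the share within same-numbered libraries was -0.33. The block moved Cxcr4 (adjusted p = 0.000198), Sox4 (0.000570), Lyz2 (0.000370), Mki67 (0.00101), Top2a (0.00470), Irf5 (0.00640), Il7r (0.00749), Fcer2a (0.0223) and Vpreb3 (0.0479) past the threshold in edgeR. The deviations of same-numbered libraries from their genotype means correlated at 0.41 over 2494 genes, but with 2 pairs and no label naming the experiments, which libraries shared an experiment is not known. Depth limits genes of few UMIs, such as Tlr9 with 35 in all.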
